A study of Mus musculus with 22 samples.

Results

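A set of 10 genes of glycolysis and its lactate branch was followed through germinal center B cells: Gpi1, Aldoa, Aldoc, Tpi1, Gapdh, Pgk1, Pgam1, Eno1, Pkm and Ldha. They were taken by name from the gene table of 3 single-cell libraries, which holds 14407 genes, and all 10 were present. The cells came from spleens of C57BL/6 mice aged 8 weeks, male per the labels, and all mice were immunized with 100 µg of antigen in 50% alum with 1 µg of lipopolysaccharide. Libraries NP 1 and NP 2 were made from NP-binding germinal center B cells (B220+, Fas high, GL-7 high, NP+), sorted on day 13 after immunization with the hapten-carrier conjugate NP(23)-KLH. Library OVA 1 held total germinal center B cells (B220+, Fas high, GL-7 high, with no antigen in the gate) after immunization with ovalbumin, with no day of sort stated. How many mice went into each library is not stated, so the spread between libraries may be partly technical. Each library was read by droplet-based 5' single-cell RNA sequencing, with a matching immunoglobulin library that gave each cell's heavy chain.

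Glycolysis splits glucose into pyruvate in the cytosol, and lactate dehydrogenase turns pyruvate into lactate while restoring NAD+. Germinal center B cells move between a light zone, where they take up antigen and meet T cells and where CD83 is high, and a dark zone, where CXCR4 is high and cells divide. MYC and the hypoxia-inducible factors are known activators of many glycolytic genes, Ldha and Aldoa among them. Aldolase A and aldolase C are isozymes from separate genes that split fructose 1,6-bisphosphate: Aldoa is the form of muscle and of most proliferating cells, while Aldoc is known best from brain.

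The bases before the start sites of the 2 aldolase genes and of Ldha are shown. Aldoa and Ldha were the genes called higher in Cd83-high cells, and Aldoc is the isozyme set against Aldoa. Aldoc did not pass the low-count filter there and was higher without it. The bases shown come from RefSeq (build GRCm38.p6) and are the 250 before an annotated start, written 5' to 3' on the gene's strand. Capitals mark ACGTG, a core of the hypoxia response element, or its reverse complement CACGT. Where these overlap they form CACGTG, the E-box that MYC can bind. The 10 genes lie apart in the genome: Aldoa at chr7:126795234-126800994, Ldha at chr7:46842274-46855627, Gpi1 at chr7:34201327-34230336, Aldoc at chr11:78323073-78327781, Gapdh at chr6:125161852-125166467 and Tpi1 at chr6:124810586-124814158. The other 4 are on chromosomes X (Pgk1), 19 (Pgam1), 4 (Eno1) and 9 (Pkm). For Aldoa the window was chr7:126799255-126799504 on the minus strand, for Aldoc chr11:78322823-78323072 on the plus strand and for Ldha chr7:46845554-46845803 on the plus strand. The windows of Aldoa and Ldha belong to start sites inside the span of their gene, and that of Aldoc ends just before it.
Aldoa: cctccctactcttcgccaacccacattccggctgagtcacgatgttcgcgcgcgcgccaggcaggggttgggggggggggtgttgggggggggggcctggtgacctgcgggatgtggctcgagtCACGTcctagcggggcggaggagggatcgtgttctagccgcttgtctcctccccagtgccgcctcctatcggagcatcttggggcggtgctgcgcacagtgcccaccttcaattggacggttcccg
Aldoc: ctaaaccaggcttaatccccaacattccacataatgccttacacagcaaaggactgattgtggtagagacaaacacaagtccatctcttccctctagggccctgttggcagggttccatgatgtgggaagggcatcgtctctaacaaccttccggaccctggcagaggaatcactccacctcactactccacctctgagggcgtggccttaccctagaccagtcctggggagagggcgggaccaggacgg
Ldha: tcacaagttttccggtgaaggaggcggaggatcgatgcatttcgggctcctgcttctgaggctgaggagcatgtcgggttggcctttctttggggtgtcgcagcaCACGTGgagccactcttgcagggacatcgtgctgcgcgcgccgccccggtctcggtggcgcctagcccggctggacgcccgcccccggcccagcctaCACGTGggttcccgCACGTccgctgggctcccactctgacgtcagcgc
These windows held 1 such place for Aldoa, none for Aldoc and 3 for Ldha, of which 2 were CACGTG. Each gene has other annotated starts: Aldoa has 3 windows, and that at chr7:126800448-126800697 held none, while the remaining one overlaps that shown and holds the same place. The second window of Ldha and that of Aldoc held none. Of the windows of all genes, 16.6% of 32851 held ACGTG on either strand and 6.02% held CACGTG. Of the 17 windows of the 10 glycolysis genes, 6 held ACGTG, the overlapping pair of Aldoa among them, and 1 held CACGTG. The windows shown for Aldoa and Ldha are thus ones that held such a place. A window of Pgk1, of Pgam1 and of Pkm held one too, and these genes were not called in Cd83-high cells. A match describes these letters and is no evidence of binding.

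Cells with fewer than 500 genes, or with over 10% of their counts from mitochondrial genes, were dropped. Each remaining cell was thinned at random to 2500 unique molecular identifiers (UMIs) outside immunoglobulin genes, and shallower cells were left out. This left 2327, 1599 and 2145 cells in NP 1, NP 2 and OVA 1, from library totals of 20533741, 16161435 and 21412501 UMIs. Levels are UMIs per 10000 of the thinned UMIs. A UMI counts 1 molecule whatever the gene's length, though capture may differ between genes, and a level is a share of a cell's RNA, not an amount. The 3 pairs of libraries shared between 9 and 11 cell barcodes. All 6 B cell markers and all 7 germinal center markers were read in every library, with Cd79a at 23.6, 29.0 and 29.1. Cells with T, NK, myeloid or alpha-globin markers numbered 13, 22 and 45.

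Gapdh, the oxidizing step of glycolysis, was the most abundant of the 10, and it was the one that differed most between libraries. Its level was 27.6 in NP 1, 12.8 in NP 2 and 15.1 in OVA 1. NP 1 was also highest for Gapdh within each of the 5 cell states described below. Next came Aldoa at 5.09 ± 0.47 (mean ± SD over 3 libraries), Ldha at 4.84 ± 0.08, Pkm at 4.31 ± 0.39 and Gpi1 at 3.89 ± 0.42. Aldoa overlapped Ldha across libraries and Pkm overlapped Gpi1, whereas Ldha and Pkm did not overlap. Ldha was the steadiest of these, at 4.92, 4.83 and 4.76 in NP 1, NP 2 and OVA 1. Eno1 averaged 2.99 ± 0.67, Tpi1 2.38 ± 0.20, Pgk1 2.36 ± 0.10 and Pgam1 2.19 ± 0.06, with ranges that overlapped between neighbours except for Pgk1 and Pgam1. Aldoc stood far below the rest, at 0.139, 0.080 and 0.138. Transcripts of Eno1b, a near copy of Eno1, came to 6.82% of the Eno1 UMIs in the whole table, so reads of the pair may be split. Aldoart1, Aldoart2 and Pgk2, copies of Aldoa and Pgk1, had at most 4 UMIs each.

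**Figure D1:**
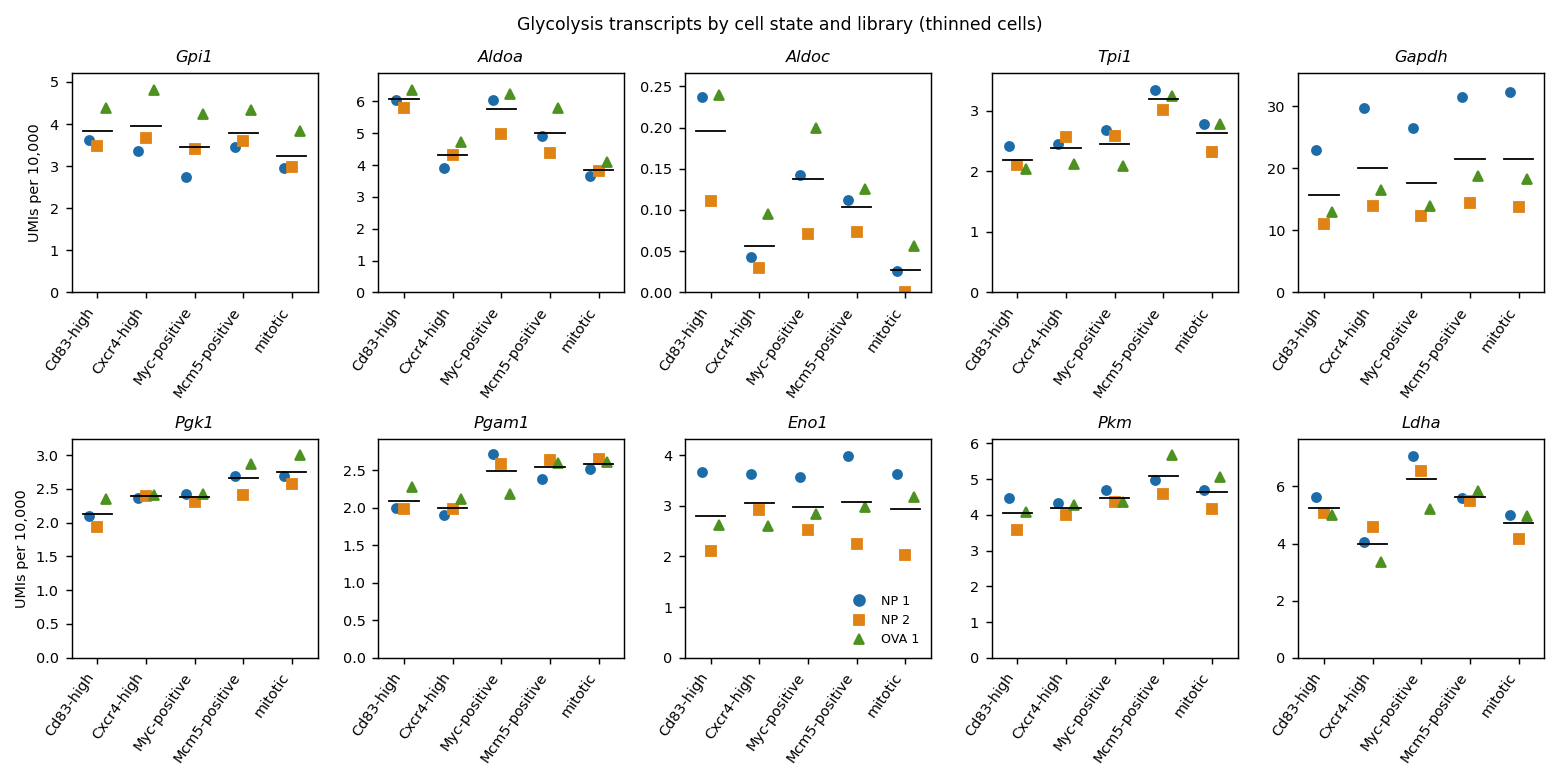
Level of each gene in UMIs per 10000 (vertical axes, each from 0) in Cd83-high, Cxcr4-high, Myc-positive, Mcm5-positive and mitotic cells; points are the 3 libraries and lines their means. Aldoa and Aldoc stand highest in Cd83-high and lowest in mitotic cells, while Tpi1 is highest in Mcm5-positive cells and Gapdh differs more between libraries than between states.

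The 5 cell states were read from the thinned counts. Cd83-high cells had at least 2 Cd83 UMIs and no Cxcr4 UMI (490, 289 and 469 cells). Cxcr4-high cells had at least 1 Cxcr4 UMI and no Cd83 UMI (373, 137 and 168 cells), since a threshold of 2 left 97, 24 and 29. Myc-positive cells had a Myc UMI (140, 113 and 200), Mcm5-positive cells an Mcm5 UMI (857, 542 and 640), and mitotic cells at least 3 of 10 mitotic genes (304, 210 and 286). The states overlap: 45.0%, 36.3% and 47.0% of Myc-positive cells were also Cd83-high, and 22.5%, 24.1% and 22.0% of Cxcr4-high cells were mitotic. Genes that define a state were left out of its test.

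Aldoa and Ldha were higher in Cd83-high than in Cxcr4-high cells, and Gapdh was lower. Aldoa reached 6.06, 5.80 and 6.36 in Cd83-high cells of NP 1, NP 2 and OVA 1, against 3.92, 4.32 and 4.71 in Cxcr4-high cells. The 2 groups did not overlap, and the log2 fold change was 0.56 ± 0.08 (SE, 3 libraries, adjusted p = 7.53e-08, edgeR's quasi-likelihood test with Benjamini-Hochberg adjustment). Ldha, which makes lactate, stood at 5.64, 5.08 and 4.998 in Cd83-high cells and at 4.05, 4.58 and 3.36 in Cxcr4-high cells. These groups did not overlap either, with a log2 fold change of 0.46 ± 0.08 (adjusted p = 1.83e-05, edgeR). Gapdh was at 23.0, 10.98 and 13.0 in Cd83-high cells, against 29.6, 13.9 and 16.5 in Cxcr4-high cells. It was lower in all 3 libraries, although the difference between libraries exceeded that between states, and its log2 fold change was -0.31 ± 0.06 (adjusted p = 3.79e-05, edgeR).

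Of the 10 genes, 9 passed the filter on low counts in this comparison: 2 were higher, 1 was lower and 6 did not pass the test. Over all 7109 genes tested, 17.1% were called, 8.79% as higher and 8.29% as lower. The median log2 fold change was 0.01 over the 9 genes and -0.01 over all genes. Gpi1, Tpi1, Pgk1, Pgam1, Eno1 and Pkm had log2 fold changes between -0.12 and 0.10. Aldoc did not pass the filter. With no filter its log2 fold change was 1.99 ± 0.43 (adjusted p = 0.000118, edgeR), resting on 29, 8 and 28 UMIs in Cd83-high cells and 4, 1 and 4 UMIs in Cxcr4-high cells.

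Levels were also read by the number of Cd83 UMIs. Among cells without a Cxcr4 UMI, Aldoa was at 4.79, 4.26 and 5.39 where no Cd83 UMI was read, at 5.40, 5.06 and 6.40 with 2, at 6.84, 6.50 and 6.10 with 3, and at 6.42, 6.47 and 6.47 with 4 or more. Gapdh was at 30.4, 13.1 and 16.2 with no Cd83 UMI and at 22.2, 8.84 and 12.6 with 4 or more. In each library Aldoa was thus higher and Gapdh lower at the upper end than with no Cd83 UMI, with steps that were not all one way, and these are the same cells in part as in the test above. Ldha did not follow: it was at 5.13, 4.74 and 4.96 with no Cd83 UMI and at 5.88, 4.74 and 4.75 with 4 or more, against 4.05, 4.58 and 3.36 in the Cxcr4-high cells. Within Cd83-high cells the 2 higher genes parted: Ldha averaged 6.89 ± 0.34 in Mcm5-positive cells outside mitosis and 4.70 ± 0.52 in cells neither Mcm5-positive nor mitotic. Aldoa averaged 5.97 ± 1.18 in Mcm5-positive cells outside mitosis and 6.26 ± 0.16 in cells neither Mcm5-positive nor mitotic (SD over 3 libraries). In Cxcr4-high cells, Ldha averaged 3.78 ± 0.61 in Mcm5-positive cells outside mitosis and 3.91 ± 0.87 in cells neither Mcm5-positive nor mitotic. These subgroups are small, down to 30 cells in a library, and were not tested.

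Other groups moved with these states. The 10 G2 and M genes outside the mitotic definition summed to 7.57, 8.08 and 7.47 in Cd83-high cells and to 16.0, 14.7 and 12.4 in Cxcr4-high cells. Outside mitotic cells the log2 fold change was 0.48 for Aldoa, 0.51 for Ldha and -0.28 for Gapdh, each still called. The 10 myeloid markers summed to 0.00, 0.01 and 0.36 in Cd83-high cells and to 0.02, 1.84 and 38.9 in Cxcr4-high cells. Without cells carrying T, NK, myeloid or alpha-globin markers, the values were 0.57 for Aldoa, 0.47 for Ldha and -0.32 for Gapdh. The 9 dissociation-response genes summed to 6.72, 6.06 and 8.72 in Cd83-high cells and to 3.03, 2.54 and 5.12 in Cxcr4-high cells, and their part in the result was not tested. Gapdh lost its call where Cxcr4-high cells needed 2 UMIs and Cd83-high cells 3, at -0.20 (adjusted p = 0.124, edgeR).

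Among other genes of the pathway, 4 of 26 tested were called (15.4%), against 17.1% of all genes. Those of glucose entry had 5 members tested, of which 2 were higher in Cd83-high cells and none lower. They were Slc2a6, a hexose transporter, with a log2 fold change of 1.66 ± 0.45, and Pfkp, a phosphofructokinase, with 0.52 ± 0.19. Slc2a6 was near the floor, at 0.171, 0.166 and 0.222 in Cd83-high cells and 0.064, 0.088 and 0.024 in Cxcr4-high cells. Of 10 pyruvate and lactate genes, Bsg, the chaperone of lactate transporters, was higher by 0.49 ± 0.14 and the other 9 did not pass. Of 9 hypoxia-response genes, Ddit4, an inhibitor of mTORC1, was higher by 1.39 ± 0.21 and 8 did not pass. Neither of the 2 other isozymes tested passed. DESeq2 called 1 of the 26 other pathway genes, against 4 by edgeR.

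**Figure D2:**
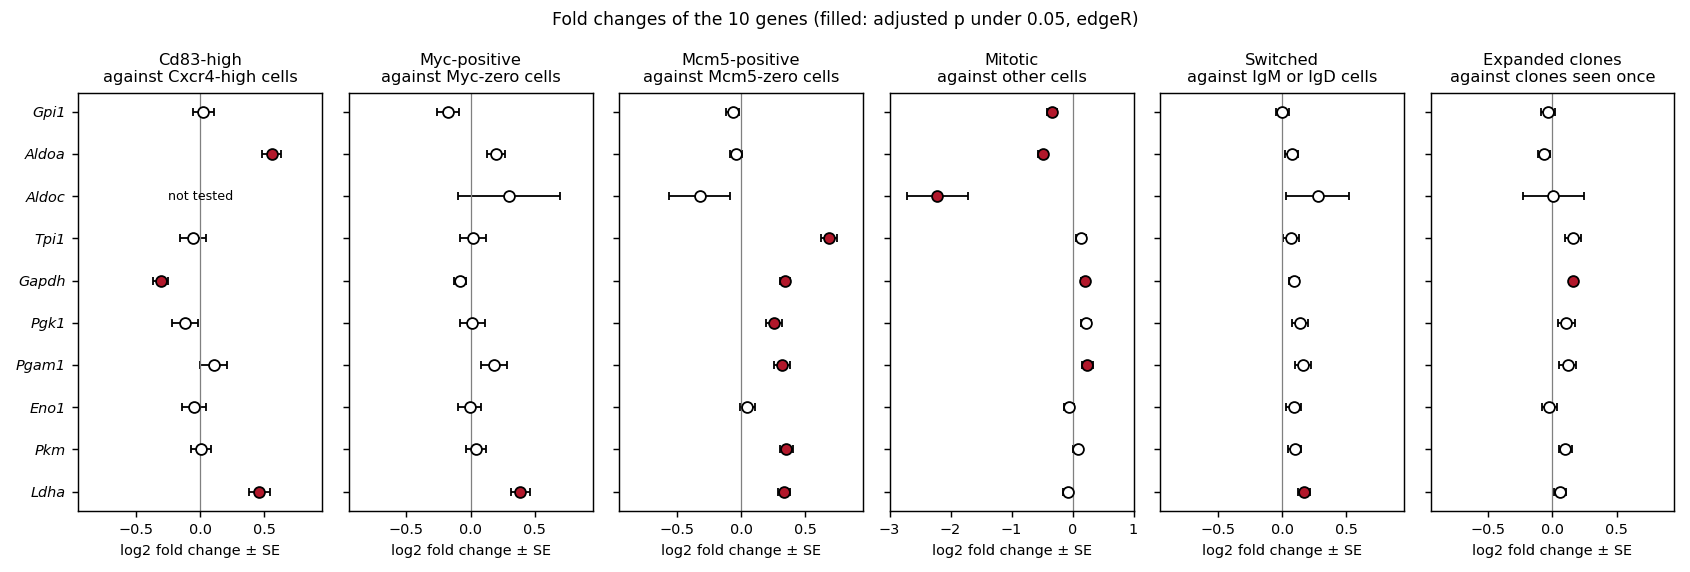
Log2 fold change with SE (horizontal axes; the mitotic panel has a wider scale) of the 10 genes in 6 comparisons, from sums of thinned UMIs in 3 libraries; filled points passed an adjusted p of 0.05 in edgeR. Aldoa and Ldha lie right of 0 in Cd83-high cells, 6 genes have filled points right of 0 in Mcm5-positive cells, and Aldoa, Gpi1 and Aldoc lie left of 0 in mitotic cells.

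Aldolase was read almost wholly from Aldoa. At least 1 Aldoa UMI was found in 65.2%, 63.7% and 71.2% of thinned cells, and at least 1 Aldoc UMI in 3.35%, 1.94% and 3.36%. Over all thinned cells Aldoc made up 2.73%, 1.67% and 2.40% of the Aldoa and Aldoc UMIs in NP 1, NP 2 and OVA 1 (exact 95% intervals 2.18 to 3.39%, 1.15 to 2.35% and 1.89 to 3.0%). The share was 3.76%, 1.87% and 3.62% in Cd83-high cells, against 1.08%, 0.671% and 1.98% in Cxcr4-high cells. It was higher in all 3 libraries, with a mean difference of 1.15 ± 0.49 in log2 odds (SD). In mitotic cells it was 0.712% (2 of 281 UMIs), 0% (0 of 201 UMIs) and 1.35% (4 of 296 UMIs). The 0 allows a share of up to 1.49% by the limit that 3 counts set, and of up to 1.82% by the exact 95% interval. In the remaining cells the share of Aldoc was 2.95%, 1.87% and 2.51%. The share was lower in mitotic cells in all 3 libraries, by 1.83 ± 1.11 in log2 odds. An exact sign-flip test over 3 libraries gave p = 0.25 for both, two-sided, which is the smallest p it can give. Another thinning draw gave 0.50 ± 0.98 for Cd83-high cells and -1.11 ± 1.02 for mitotic cells in log2 odds (SD). For Cd83-high cells the spread between libraries in that draw exceeded the mean difference. Intervals cover counting error only.

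The share of Aldoc was 2.30%, 1.40% and 3.12% in Myc-positive cells and 2.77%, 1.70% and 2.31% in cells with no Myc UMI. It was 2.23%, 1.66% and 2.12% in Mcm5-positive cells and 3.02%, 1.68% and 2.52% in cells with no Mcm5 UMI. With Myc the share was lower in both NP libraries and higher in OVA 1, and with Mcm5 it was lower in all 3, least in NP 2. Log odds were taken with 0.5 added to each UMI sum, which turned the small difference of NP 2 upward in both. They gave an exact sign-flip p of 0.75 for Myc and 0.5 for Mcm5, in a test that cannot go below 0.25 and so could not pass. It was 3.21%, 1.86% and 2.46% in switched cells and 2.41%, 1.58% and 2.48% in IgM or IgD cells (exact sign-flip p = 0.5). In expanded clones it was 2.48%, 1.67% and 2.90%, against 3.34%, 1.79% and 1.90% in clones seen once, with no common direction. By isotype it ranged from 1.27% to 6.35% over 12 sums of IgG cells and from 1.45% to 2.49% over the 3 sums of IgM cells. The highest, in IgG3 cells of OVA 1, rested on 4 of 63 UMIs (interval 1.76 to 15.5%).

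**Figure D3:**
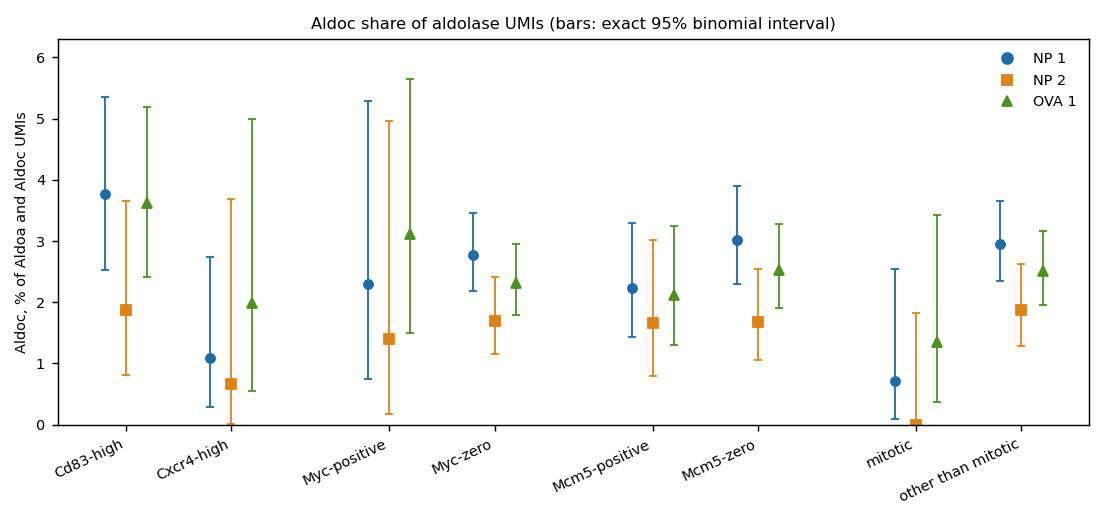
Aldoc as a percent of Aldoa and Aldoc UMIs (vertical axis) in 4 pairs of cell groups, per library; bars are exact 95% binomial intervals. The share is higher in Cd83-high than in Cxcr4-high cells and lower in mitotic than in other cells in each library, while the intervals within a library overlap in every pair.

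Ldha was the one gene of the 10 that was called in Myc-positive cells. It stood at 7.06, 6.55 and 5.22 in Myc-positive cells, against 4.78, 4.70 and 4.72 in cells with no Myc UMI. The groups did not overlap, though OVA 1 was closer to the zero cells than either NP library, and the log2 fold change was 0.39 ± 0.07 (adjusted p = 0.000605, edgeR). All 10 genes were tested, 1 was higher and 9 did not pass, where 2.53% of 8870 genes were called, 1.76% as higher and 0.767% as lower. Aldoa was at 6.06, 4.99 and 6.22 in Myc-positive cells, against 4.88, 4.68 and 5.56 in cells with no Myc UMI. Its log2 fold change was 0.19 ± 0.07 (adjusted p = 0.179, edgeR). Aldoa and Pgam1 passed where all UMIs of the cells were used, at 0.22 and 0.28. Without NP 1 the value for Ldha was 0.29 (adjusted p = 0.145, edgeR).

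The 9 light zone genes summed to 36.5, 23.2 and 33.6 in Myc-positive cells, against 14.3, 11.7 and 16.0 in cells with no Myc UMI. The 9 dissociation-response genes summed to 7.37, 6.30 and 10.04 in Myc-positive cells and to 4.06, 3.22 and 6.03 in cells with no Myc UMI, and the part of either list in the result was not tested. The 5 NK markers summed to 0.086, 0.142 and 1.92 in Myc-positive cells and to 0.108, 0.030 and 0.210 in cells with no Myc UMI. The 10 myeloid markers summed to 0.00, 0.035 and 0.320 in Myc-positive cells and to 0.364, 7.87 and 16.8 in cells with no Myc UMI. Without cells carrying T, NK, myeloid or alpha-globin markers, Ldha was at 0.38 and still called.

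The Myc split was also made within Cd83-high cells, with 63, 41 and 94 Myc-positive cells. There edgeR called none of the 9 genes tested, 3 of them had an unadjusted p under 0.05, and DESeq2 called none. Of 5298 genes, 2.0% were called, 1.4% as higher and 0.604% as lower, and 590 had an unadjusted p under 0.05. Ldha was at 7.49, 6.34 and 5.06 in Myc-positive cells, against 5.37, 4.87 and 4.98 in cells with no Myc UMI, a log2 fold change of 0.25 ± 0.12. Here too the dissociation-response genes differed, at 10.2, 11.02 and 13.6 in Myc-positive cells and 6.20, 5.24 and 7.51 in cells with no Myc UMI. With all UMIs of the same cells, Ldha, Pgam1 and Aldoa passed at 0.40, 0.36 and 0.25. Over all Myc-positive cells 37 other pathway genes were tested, and none was called by edgeR or DESeq2. Of them 2 had an unadjusted p under 0.05, as did 1072 of all 8870 genes. Within Cd83-high cells none of 20 was called by either tool, and 3 had an unadjusted p under 0.05.

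Of the 10 genes, 6 were higher and none was lower in Mcm5-positive cells, which carry transcripts of the replicative helicase. Tpi1, which interconverts the triose phosphates, changed most, at 3.35, 3.004 and 3.24 in Mcm5-positive cells, against 2.19, 1.87 and 1.87 in cells with no Mcm5 UMI. The groups did not overlap and the log2 fold change was 0.68 ± 0.06 (adjusted p = 1.82e-24, edgeR). Pkm, the pyruvate kinase of most tissues, was at 4.98, 4.57 and 5.68, against 4.22, 3.50 and 4.10 in cells with no Mcm5 UMI. Ldha was at 5.60, 5.48 and 5.82, against 4.52, 4.50 and 4.31 in cells with no Mcm5 UMI. Both genes were higher in all 3 libraries and their groups did not overlap. Gapdh was at 31.5, 14.4 and 18.7 in Mcm5-positive cells, against 25.4, 11.95 and 13.6 in cells with no Mcm5 UMI, and again the libraries differed more than the states.

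Pgam1 was at 2.39, 2.63 and 2.60 in Mcm5-positive cells, against 1.98, 2.04 and 2.04 in cells with no Mcm5 UMI. Pgk1 was at 2.69, 2.41 and 2.87 in Mcm5-positive cells, against 2.23, 2.16 and 2.25 in cells with no Mcm5 UMI. Neither gene's groups overlapped. Eno1, whose enzyme makes phosphoenolpyruvate, was at 3.99, 2.24 and 2.97 in Mcm5-positive cells, against 3.58, 2.50 and 2.79 in cells with no Mcm5 UMI, so that NP 2 went the other way from NP 1 and OVA 1. The log2 fold changes were 0.35 ± 0.05 for Pkm, 0.34 ± 0.04 for Gapdh, 0.33 ± 0.05 for Ldha, 0.32 ± 0.06 for Pgam1 and 0.26 ± 0.06 for Pgk1. Pgk1 and Pgam1 are the kinase and mutase of 3-phosphoglycerate. Gpi1, Aldoa, Aldoc and Eno1 did not pass, with log2 fold changes of -0.07, -0.04, -0.32 and 0.05. The background is high here, since 26.9% of 9058 genes were called, 14.8% as higher and 12.1% as lower, and the median log2 fold change was 0.29 over the 10 genes and -0.03 over all genes. Outside mitotic cells the 6 genes were called again, Tpi1 at 0.72. Pgk1 was not called by DESeq2 (adjusted p = 0.106).

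Tpi1 was at 2.19, 1.87 and 1.87 with no Mcm5 UMI, at 3.20, 2.81 and 3.24 with 1, at 3.43, 3.37 and 3.62 with 2, and at 3.86, 3.08 and 2.68 with 3 or more. The steps from no UMI to 1 and from 1 to 2 were upward in all libraries, while the last was upward in NP 1 alone. The 13 S phase genes summed to 34.4, 32.7 and 35.7 in Mcm5-positive cells and to 13.9, 12.4 and 11.2 in cells with no Mcm5 UMI. The 8 memory or naive markers summed to 2.50, 3.04 and 4.67 in Mcm5-positive cells and to 5.44, 6.49 and 11.04 in cells with no Mcm5 UMI, and their part in the result was not tested. The 10 myeloid markers summed to 0.009, 0.568 and 0.294 in Mcm5-positive cells and to 0.536, 10.8 and 21.6 in cells with no Mcm5 UMI, and without cells carrying T, NK, myeloid or alpha-globin markers the 6 genes were called again, Tpi1 at 0.67. Before thinning the median cell held 8092, 10791.5 and 11202 UMIs among Mcm5-positive cells, against 5673.5, 7557 and 7287 among cells with no Mcm5 UMI. Of the other pathway genes, 4 of 39 were called (10.3%), against 26.9% of all genes. Of 10 glucose entry genes tested, Pfkfb3, which makes the activator of phosphofructokinase, was lower by 0.73 on the log2 scale and 9 did not pass. Of 14 hypoxia-response genes, Higd1a was higher (0.48 ± 0.07), Ddit4 and the mitophagy receptor Bnip3l were lower (-1.14 ± 0.12 and -0.49 ± 0.11), and 11 did not pass. The 12 pyruvate and lactate genes and the 3 other isozymes tested did not pass. DESeq2 called 2 of the 39 other pathway genes, against 4 by edgeR.

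Mitotic cells had less Aldoa, Gpi1 and Aldoc than other cells. Aldoa was at 3.67, 3.83 and 4.08 in mitotic cells, against 5.15, 4.84 and 5.85 in other cells. The groups did not overlap and the log2 fold change was -0.49 ± 0.08 (adjusted p = 1.64e-05, edgeR). Gpi1, which turns glucose 6-phosphate into fructose 6-phosphate, was at 2.95, 2.97 and 3.83, against 3.74, 3.78 and 4.46 in other cells. It was lower in all 3 libraries, with a log2 fold change of -0.33 ± 0.08 (adjusted p = 0.00206, edgeR). Aldoc had 2, 0 and 4 UMIs in mitotic cells, levels of 0.026, 0 and 0.056, against 79, 32 and 70 UMIs in other cells. Its log2 fold change was -2.22 ± 0.50 (adjusted p = 0.00135, edgeR), a fitted value that rests on those 6 UMIs.

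Gapdh and Pgam1 passed in the other direction, at 0.20 ± 0.07 and 0.24 ± 0.08 (adjusted p = 0.0271 and 0.0384, edgeR). Gapdh lost its call in 7 and Pgam1 in 11 of 14 alternatives. Of the 10 genes, 2 were higher, 3 were lower and 5 did not pass, where 22.0% of 8897 genes were called, 11.7% as higher and 10.3% as lower. Tpi1, Pgk1, Eno1, Pkm and Ldha had log2 fold changes between -0.07 and 0.22. Before thinning, mitotic cells held more UMIs, with medians of 7887.5, 11307 and 11849, against 6206, 8308 and 7751 in other cells. With all UMIs, the value for Aldoa was -0.26 and that for Gpi1 was -0.18, both still called. A different thinning draw gave -0.66 for Aldoa and -0.20 for Gpi1.

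Aldoa was also read by the number of mitotic genes detected. It was at 5.42, 4.998 and 6.13 with none, at 4.17, 4.31 and 5.16 with 2, and at 3.59, 3.70 and 3.94 with 4 or more. Gpi1 was at 3.76, 3.83 and 4.56 with none and at 2.67, 3.09 and 4.06 with 4 or more. In each library both genes were lower at the upper end than with no mitotic gene, with steps that were not all one way. In OVA 1, Aldoa was at 4.91 with 1 mitotic gene and at 5.16 with 2. These are the same cells as in the test above. The 9 light zone genes summed to 7.33, 5.12 and 10.9 in mitotic cells and to 16.9, 13.6 and 18.6 in other cells. The 6 dark zone genes, with Ccnb1 of the mitotic definition among them, summed to 12.8, 11.8 and 9.27 against 8.55, 7.16 and 6.14. The part of either list in the result was not tested. The 10 myeloid markers summed to 0.00, 23.5 and 18.1 in mitotic cells and to 0.39, 4.86 and 14.8 in other cells. Without cells carrying T, NK, myeloid or alpha-globin markers the value was -0.50 for Aldoa, -0.34 for Gpi1 and -2.22 for Aldoc.

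Of the other pathway genes, 7 of 36 were called in mitotic cells (19.4%), against 22.0% of all genes. Of 12 pyruvate and lactate genes, 3 were higher and none was lower. Among them were Dld, a subunit of pyruvate dehydrogenase (0.50 ± 0.16), and Mpc1, of the mitochondrial pyruvate carrier (0.41 ± 0.14). The other was Mpc2, the partner of Mpc1, named here after its value was seen. Of 11 glucose entry genes, Pfkl, the liver-type phosphofructokinase, was lower (-0.66 ± 0.21) and 10 did not pass. Of 11 hypoxia-response genes, Ddit4, Ankrd37 and Bnip3l were lower (-1.50 ± 0.19, -1.12 ± 0.28 and -0.43 ± 0.15) and 8 did not pass. DESeq2 called 1 of the 36 other pathway genes, against 7 by edgeR.

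**Figure D4:**
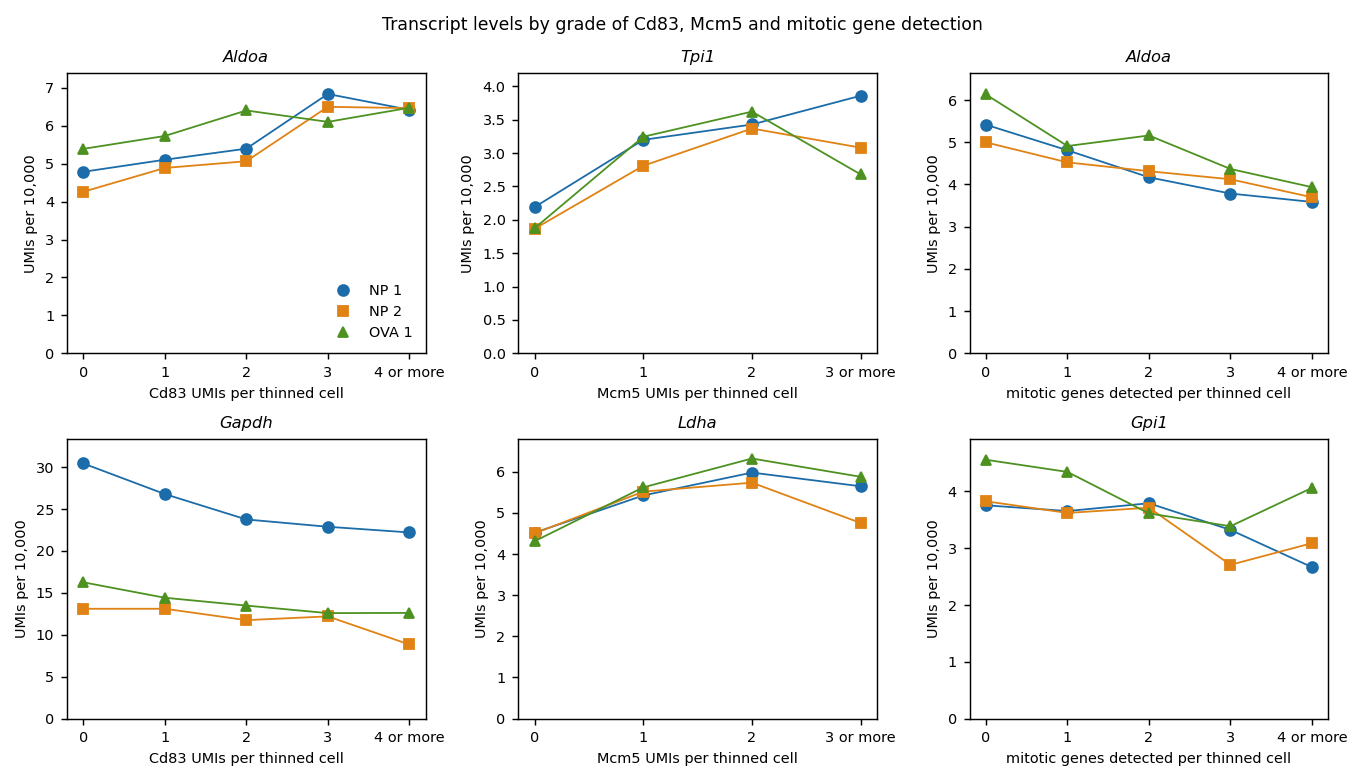
Level in UMIs per 10000 (vertical axes, from 0) by the number of Cd83 UMIs (left, cells with no Cxcr4 UMI), of Mcm5 UMIs (middle) and of mitotic genes read (right) in thinned cells; lines join the values of 1 library. Aldoa is higher and Gapdh lower with 4 or more Cd83 UMIs than with none, and Tpi1 and Ldha step up from no Mcm5 UMI to 1. Aldoa is lower with 4 or more mitotic genes than with none.

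Ldha was higher in cells with a switched heavy chain than in cells with IgM or IgD. It was at 5.52, 5.06 and 5.22 in switched cells (880, 775 and 862 cells), against 4.65, 4.67 and 4.62 in IgM or IgD cells (707, 582 and 921 cells). The groups did not overlap and the IgM or IgD values lay close together, with a log2 fold change of 0.17 ± 0.05 (adjusted p = 0.0207, edgeR). It was the only one of the 10 genes called, where 2.76% of 8793 genes were, 0.944% as higher and 1.82% as lower. The call was lost in 8 of 14 alternatives, DESeq2 and the fit without NP 1 among them, while the fold change stayed between 0.13 and 0.20. The other 9 genes had log2 fold changes between 0.00 and 0.28. Of them 4 had an unadjusted p under 0.05, as did 1072 of all 8793 genes.

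By isotype, Ldha averaged 5.18 ± 0.11 in IgG1, 5.26 ± 0.11 in IgG2b, 5.11 ± 0.26 in IgG2c and 5.62 ± 0.64 in IgG3 cells, against 4.63 ± 0.01 in IgM cells (SD over 3 libraries). Every IgG value exceeded the IgM value of its library. Among the IgG isotypes, IgG3 had the highest mean and the widest spread, with only 43 cells in OVA 1. Aldoa averaged 5.13 ± 0.77, 5.52 ± 0.77, 5.61 ± 0.37 and 5.21 ± 0.25 in IgG1, IgG2b, IgG2c and IgG3 cells, against 5.12 ± 0.46 in IgM cells. In NP 1, NP 2 and OVA 1 it was at 5.38, 4.83 and 6.35 in IgG2b and at 5.89, 5.19 and 5.77 in IgG2c cells. Both exceeded the IgM cells of the same library (5.03, 4.71 and 5.62), while IgG1 and IgG3 cells had no common direction against IgM. Single isotypes were not tested. The 8 memory or naive markers summed to 3.76, 4.4 and 6.74 in switched cells and to 6.08, 7.05 and 12.7 in IgM or IgD cells, and their part in the result was not tested. Of 36 other pathway genes none was called by edgeR or DESeq2, and 3 had an unadjusted p under 0.05, as did 1072 of all 8793 genes.

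Gapdh was the gene that differed with clone size. In cells of clones seen at least 2 times, Gapdh was at 29.7, 13.4 and 16.2, against 25.6, 12.4 and 13.8 in cells of clones seen once. It was higher in all 3 libraries, with a log2 fold change of 0.16 ± 0.03 (adjusted p = 3.90e-05, edgeR). No other of the 10 genes was called, where 2.69% of 8735 genes were, 0.801% as higher and 1.89% as lower. The call was lost without NP 1 (0.14, adjusted p = 0.0503, edgeR) and with all UMIs, where the log2 fold change was 0.08. The 13 S phase genes summed to 24.3, 22.0 and 20.9 in expanded clones, against 21.3, 19.0 and 16.6 in clones seen once. The 8 memory or naive markers summed to 3.67, 3.87 and 6.74 in expanded clones, against 5.77, 6.73 and 13.6 in clones seen once, and the part of either list in the result was not tested.

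With growing clone size Gapdh was at 25.6, 12.4 and 13.8 in clones of 1 cell, at 29.1, 13.0 and 15.8 in clones of 2 to 4 cells, and at 30.4, 13.7 and 16.6 in clones of 5 or more cells. The order was the same in each library. Ldha averaged 4.83 ± 0.04, 4.99 ± 0.54 and 5.26 ± 0.10 over the same 3 sizes, and its difference between expanded and single clones did not pass (0.06 ± 0.05). Of 12 hypoxia-response genes tested, Ddit4 was lower in expanded clones by 0.48 on the log2 scale and 11 did not pass. The other 23 pathway genes tested did not pass, and DESeq2 called none. Of all 35, 6 had an unadjusted p under 0.05, as did 1074 of all 8735 genes. Aldoa, at 5.08, 4.57 and 5.94 in expanded clones and 5.28, 5.0 and 5.71 in clones seen once, had no common direction.

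**Figure D5:**
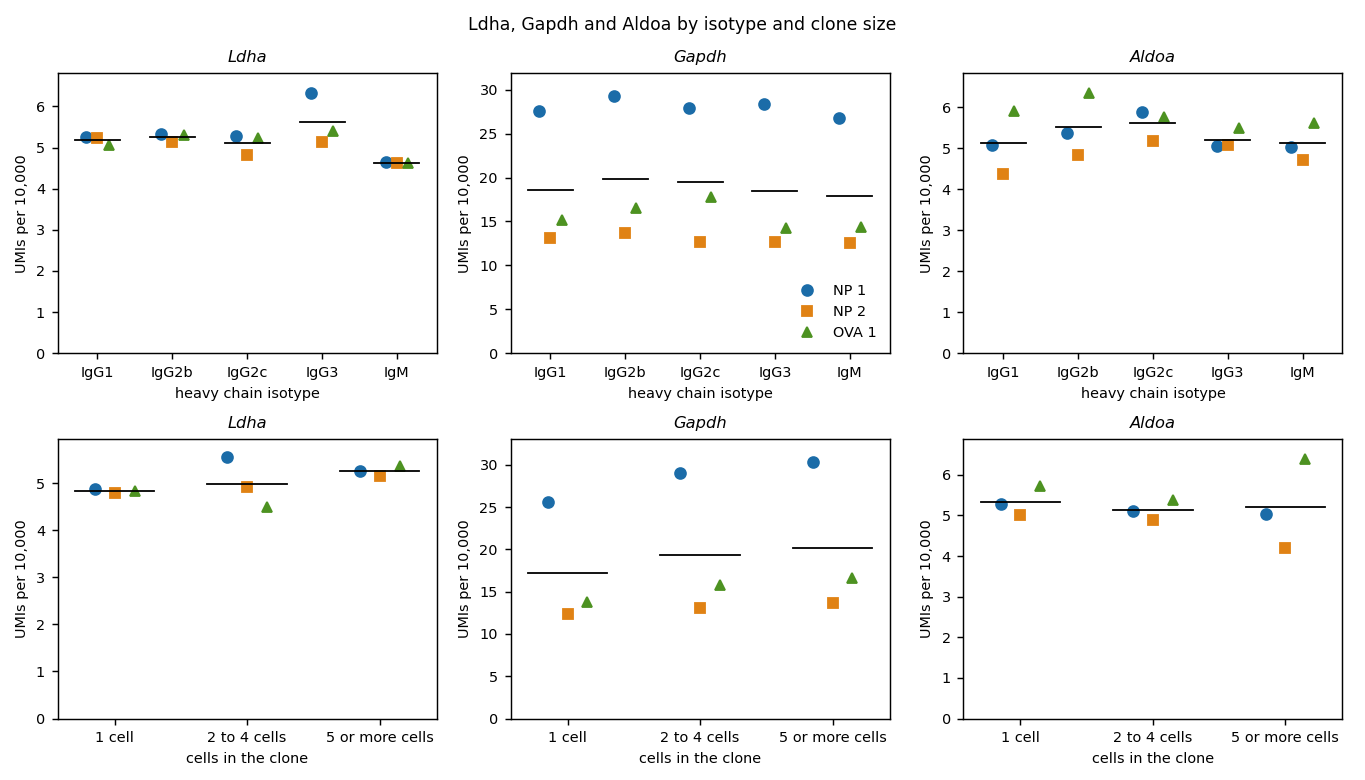
Levels of Ldha, Gapdh and Aldoa in UMIs per 10000 (vertical axes, from 0) by heavy chain isotype (top) and by the number of cells in the clone (bottom); points are libraries and lines their means. Ldha is lowest in IgM cells and Gapdh is higher in larger clones in each library. Aldoa is higher in IgG2b and IgG2c than in IgM cells in each library, with no common order otherwise.

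Cells with an Aldoc UMI were few: 78, 31 and 72 of the thinned cells. Among the 80 cells with T, NK, myeloid or alpha-globin markers, 1 had an Aldoc UMI. Aldoa was at 5.49, 6.32 and 7.00 in Aldoc-positive cells, against 4.94, 4.67 and 5.57 in cells with no Aldoc UMI. It was higher in all 3 libraries but did not pass (0.27 ± 0.11, adjusted p = 0.308, edgeR). None of the 9 other genes was called by edgeR or DESeq2, where edgeR called 1.03% of 8896 genes, 0.315% as higher and 0.719% as lower. Of the 9, 2 had an unadjusted p under 0.05, as did 707 of the 8896 genes. With all UMIs, Aldoa passed at 0.30. Of the other pathway genes 35 were tested, and Ddit4 alone was called by edgeR, higher by 1.08 ± 0.23, while DESeq2 called none. The 9 light zone genes summed to 21.9, 21.2 and 25.4 in Aldoc-positive cells, against 15.4, 12.3 and 17.3 in cells with no Aldoc UMI. The 10 G2 and M genes summed to 8.10, 5.81 and 7.89, against 12.8, 11.3 and 10.1. The part of either list in these values was not tested.

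The effect of each state was compared between the OVA library and the 2 NP libraries with an interaction term. Of the 77 tests, 5 had an unadjusted p under 0.05, a count that was not set against all genes. No glycolysis gene was called in any of the 8 comparisons by edgeR, with adjusted p from 0.465 to 1. With 1 OVA library and 1 residual degree of freedom this does not show that the effects are alike, and immunization and sort differ together between the libraries.

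Across 15 sums (5 states in 3 libraries), centred within each library, the genes most like Aldoa were Ppp1r18, Rhof, Vasp, Cyba and Il21r, with Pearson r from 0.96 to 0.94. For Aldoc they were Pou2f2, Cd180, Irf8, Sorl1 and Gmip, with r from 0.95 to 0.94. Each set of 5 is the top of 1845 genes compared. Aldoa and Aldoc had r = 0.87 with each other, Aldoa and Ldha 0.61, and Aldoa and Gapdh -0.77. Every r of Aldoc rests on few counts, with 4, 1 and 4 UMIs in Cxcr4-high and 2, 0 and 4 in mitotic cells. The sums share libraries and some cells, so these values describe the pattern and carry no p.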

How the data were processed

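The authors deposited UMI counts, unnormalized whole numbers for every gene in every cell. Cell Ranger and the build mm10 were used per the submitters' processing notes, which give no version. How reads shared between gene copies were counted is not stated, and splice forms such as those of Pkm are not told apart. Immunoglobulin genes (225) were removed. Clone size is the number of cells of a library that share V and J gene and CDR3 bases, and isotype is that of the heavy chain with the most UMIs. Thinned counts were summed per library and state and tested by the quasi-likelihood test of edgeR 4.0.16 under R 4.3.3. The fit had a block for each library, TMM normalization, filterByExpr and Benjamini-Hochberg adjustment over all genes, at an adjusted p of 0.05. Both arms of a comparison are cells of the same library, which is where the pairing comes from. The SE was taken as the size of the log2 fold change over the root of its F statistic. An alternative test used DESeq2 1.42.0. The count test was tried on simulated data with the same expression profile in every library and a fixed dispersion. These libraries differ from each other, so that trial does not vouch for the test here. Shares have exact Clopper-Pearson intervals at 95%, and a count of 0 is given with the limit that 3 counts set. Of other pathway genes 57 are in the table, and up to 6 per comparison with the largest change among those called are named. Likeness used log2(CPM + 1), and the non-member genes compared had at least 20 UMIs in every sum. Aldoc itself did not reach that number in every sum. Doublets were not called. The glycolysis genes, the lists and the comparisons were chosen with earlier results of these data known.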

Additional observations from a re-analysis of the deposited data

How the results depend on the processing

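Counts here are of the 10 glycolysis genes called. Leaving out the pairing by library (no replicate block) gave 1 for Cd83-high against Cxcr4-high cells, where the paired fit gave 3. It gave 0 for Myc, 1 for Mcm5, 1 for mitotic cells, 0 for switched cells and 0 for expanded clones, where the paired fit gave 1, 6, 5, 1 and 1. Without the pairing the differences between libraries enter the error, by construction. With all UMIs of the same cells the counts were 5 for Cd83-high, 3 for Myc, 3 for Myc within Cd83-high, 3 for switched cells, 0 for expanded clones and 1 for Aldoc-positive cells. The planned removal of other cell types gave 0 for Myc, 2 for mitotic and 0 for switched cells, but its marker lists held Lck, Jchain and Xbp1 and it left out over 1000 cells in each library; Aldoa in mitotic cells was then at -1.21. Mitotic cells gave 3 with no low-count filter, without possible doublets and with 1 more mitotic gene required. A higher threshold for Aldoc gave 1 (Gapdh, -1.67), but it left very few cells. The 78, 31 and 72 Aldoc-positive cells of NP 1, NP 2 and OVA 1 held only 81, 32 and 74 Aldoc UMIs. Switched cells gave 0 with DESeq2, another thinning draw, the stricter cell filter, without possible doublets and outside mitotic cells. Leaving out 1 library at a time gave 3 to 4 for Cd83-high, 0 to 1 for Myc, 6 for Mcm5, 3 to 4 for mitotic, 0 to 1 for switched, 0 to 1 for expanded and 0 for Aldoc-positive cells and for Myc within Cd83-high cells; for Myc, switched and expanded cells the 0 came without NP 1. Of all results and settings, 1060 kept their side of the threshold, 45 lost it, 14 gained it and none reversed a called direction. The 1060 include genes that were not called and stayed so, and only called genes could lose a call. For changes other than those from the missing block, the cause was not tested.

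Over all genes, DESeq2 called between 0.115 and 0.411 of edgeR's number, all UMIs between 1.54 and 4.20 times it, and the fit without the block between 0 and 0.259. For Cd83-high cells these were 270, 2378 and 314 against 1214. For Mcm5 they were 710, 3758 and 345 against 2435, and for mitotic cells 806, 3424 and 484 against 1959. For Myc they were 76, 733 and 25 against 224, for Myc within Cd83-high cells 19, 382 and 16 against 106, for switched cells 28, 524 and 0 against 243, for expanded clones 54, 432 and 0 against 235, and for Aldoc-positive cells 36, 386 and 3 against 92. Without NP 1 the count was 637 for Cd83-high, 102 for Myc-positive, 27 for Myc within Cd83-high, 138 for switched and 32 for Aldoc-positive cells. Without NP 2 it was 63 for Myc within Cd83-high, 109 for expanded and 56 for Aldoc-positive cells, and without OVA 1 it was 1300 for mitotic, 96 for switched, 90 for expanded and 55 for Aldoc-positive cells. The stricter cell filter (1000 genes, 5% mitochondrial) gave 733, 138, 41, 1556, 130, 133 and 55 for Cd83-high, Myc, Myc within Cd83-high, Mcm5, switched, expanded and Aldoc-positive cells. The planned removal gave 490, 50, 8, 1080, 704, 146 and 1 for Cd83-high, Myc, Myc within Cd83-high, Mcm5, mitotic, switched and Aldoc-positive cells. A higher threshold gave 477 for Cd83-high, 16 for Myc within Cd83-high and 141 for Aldoc-positive cells, the last from very few cells. Another draw gave 45 for Myc within Cd83-high cells. For mitotic cells the count was 2024 with no low-count filter, 1809 without possible doublets and 1616 with 1 more mitotic gene required. Switched cells gave 231 with another draw, 177 without possible doublets and 207 outside mitotic cells. Leaving out 1 library at a time gave 637 to 1083 for Cd83-high, 102 to 214 for Myc and 1759 to 2099 for Mcm5. It gave 1300 to 1620 for mitotic cells, 96 to 237 for switched cells and 90 to 198 for expanded clones. For Aldoc-positive cells DESeq2's size factors in edgeR gave 40 higher and 58 lower, against 28 and 64.

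The removal of T, NK, myeloid or alpha-globin cells, and of mitotic cells for the Cd83 comparisons, was chosen after seeing the data. Aldoc is limited by depth: its share in mitotic cells rests on 6 UMIs, and the log2 odds difference lay between -2.37 and -0.05 over the alternatives, with -0.05 under the planned removal. A cell's state rests on 1 to 3 UMIs or genes. Free RNA in droplets was not measured.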
